A study of Mus musculus with 15 samples.

Results

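The BCL2 family of apoptosis regulators was followed across all groups of an RNA sequencing study of B16-F10 cells, a mouse melanoma line. The family was taken as 10 genes, found in the deposited count table by matching its Ensembl identifiers to GENCODE M21 symbols. These were the pro-survival genes Bcl2, Bcl2l1 and Mcl1, the effectors Bax and Bak1, and the BH3-only genes Bbc3, Bid, Bcl2l11, Bad and Pmaip1. Each matched 1 of the 46078 identifiers in the table, and 9 of the 10 passed the low-count filter that left 15152 genes for testing. Pmaip1 had no count in any library and is described on its own.

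The study holds 15 libraries in 5 groups of 3, all from B16-F10 cells and prepared as total RNA. In the siRNA arm, siEzh2 cells received an siRNA against Ezh2 and scr cells a scrambled control. In the compound arm, cells received 2 µM DZNep, 2 µM GSK126 or the vehicle DMSO. The comparisons ask how family transcripts differ after loss of Ezh2 transcript or after a compound aimed at the EZH2 pathway. EZH2 is the histone H3 lysine 27 methyltransferase of Polycomb repressive complex 2. GSK126 inhibits its catalytic activity, and DZNep inhibits S-adenosylhomocysteine hydrolase, an enzyme that methyltransferases of many kinds depend on. For treatment time, siRNA sequences and the number of separate cultures, nothing is given in the sources used here. The p-values therefore set a difference between groups only against the scatter among these libraries, and that scatter may be technical. Nothing beyond the line's name is given of genotype either, and a cell line is a single source of cells.

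BCL2 proteins decide whether the outer membrane of mitochondria stays intact. BAX and BAK are the effectors that permeabilise it and let cytochrome c reach the caspase machinery, while BCL2, BCL-XL (the long product of Bcl2l1) and MCL1 hold them in check. BH3-only proteins such as PUMA (Bbc3), BIM (Bcl2l11), BID, BAD and NOXA (Pmaip1) relay stress signals by binding pro-survival proteins or, for some, by activating BAX and BAK. BCL2 itself is a known target of the lineage factor MITF in melanocytes, and MCL1 is a short-lived protein whose level is set largely by turnover.

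Promoter sequences are shown for the 3 genes whose transcripts differed by more than 2-fold with DZNep. Bcl2 fell, and Bcl2l1 and Bcl2l11 rose. A link between these sequences and the changes was not tested. Each is the run of 250 bases before the most upstream RefSeq start, read 5′ to 3′ on the strand of the gene in GRCm38.p6. Capitals mark matches on either strand to the searched motifs, and no marked matches overlap within these 3 windows. The Bcl2 window is chr1:106714291-106714540 on the minus strand, the Bcl2l1 window is chr2:152831729-152831978 on the minus strand, and the Bcl2l11 window is chr2:128125788-128126037 on the plus strand.
Bcl2: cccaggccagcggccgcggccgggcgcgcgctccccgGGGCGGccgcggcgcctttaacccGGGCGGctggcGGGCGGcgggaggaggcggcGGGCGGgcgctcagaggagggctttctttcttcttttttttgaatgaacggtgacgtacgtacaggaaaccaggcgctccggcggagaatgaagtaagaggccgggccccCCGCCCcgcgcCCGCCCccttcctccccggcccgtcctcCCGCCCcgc
Bcl2l1: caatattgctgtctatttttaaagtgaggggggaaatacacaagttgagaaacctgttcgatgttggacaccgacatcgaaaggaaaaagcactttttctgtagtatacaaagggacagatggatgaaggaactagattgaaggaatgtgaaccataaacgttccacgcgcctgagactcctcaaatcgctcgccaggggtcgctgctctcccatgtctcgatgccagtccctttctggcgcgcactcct
Bcl2l11: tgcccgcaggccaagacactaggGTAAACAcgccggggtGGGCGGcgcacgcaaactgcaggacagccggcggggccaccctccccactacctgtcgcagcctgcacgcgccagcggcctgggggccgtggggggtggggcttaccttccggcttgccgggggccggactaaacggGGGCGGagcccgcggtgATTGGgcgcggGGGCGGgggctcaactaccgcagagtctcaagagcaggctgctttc

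The Bcl2 window was 74.8% G and C and held 36 CpG dinucleotides, the Bcl2l11 window 72.0% and 24, and the Bcl2l1 window 47.6% and 12. Over all RefSeq promoter windows the medians were 52.0% and 6. Both strands were searched for several motifs. These were the GC box with letters GGGCGG, the box named CCAAT for its letters, the TATA box with letters TATAAA, the cAMP response element (TGACGTCA), the FOXO site (GTAAACA), the E2F site (TTTCGCGC or TTTGGCGC), the composite site of ATF4 and CHOP (TGATGCAA) and the p53 response element. The GC box was present in 7 of the 9 member windows searched and in 33% of 27025 promoters. Bcl2 held 7 copies, Bcl2l11 held 3, and the Bcl2l1 and Bak1 windows held no copy. Some members have more than 1 promoter window, 3 for Bcl2l1 and Bbc3 and 2 for Bcl2l11 and Bad. Only the most upstream was searched. CCAAT was found in the Bcl2l11 window (34.5% of all promoters), as was the FOXO site (3.06% of all promoters), which lay 227 to 221 bases before the start. The TATA box (13% of promoters), the cAMP response element (1.6%), the E2F site (0.681%), the ATF4 and CHOP site (0.825%) and the p53 response element (0.0444%) had no match in the 9 member windows. A match describes letters in this window and is not evidence of binding.

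Libraries held 33299524 to 64545747 counts, and tested members had between 252 and 19577 counts in a library. Ezh2 averaged 39.6 ± 1.87 CPM in siEzh2 cells and 219 ± 6.59 CPM in scr cells (SD, n = 3 each; CPM is counts scaled to 1000000 per library, with TMM factors) (log2 fold change −2.47 ± 0.05, adjusted p = 1.22e-17). In the compound arm Ezh2 averaged 155 ± 5.06 CPM in DZNep, 214 ± 6.81 in GSK126 and 207 ± 2.66 in DMSO cells. By edgeR it was lower with DZNep (log2 −0.41 ± 0.05, adjusted p = 3.67e-07) and was not called with GSK126 (0.05 ± 0.05, adjusted p = 0.569). Library numbers in the sample names run from 4 to 9 in the siRNA arm and from 13 to 20 in the compound arm, except GSK126 replicate 1, which carries number 3. All 7 melanocyte markers passed the filter, with summed levels of 24070 to 25531 CPM in siEzh2, 18904 to 19999 in scr, 22044 to 22375 in DZNep, 21404 to 21763 in GSK126 and 25278 to 25625 in DMSO cells. Of 8 fibroblast markers 4 passed. All 8 together summed to 27.0 to 30.2 CPM in siEzh2 cells, 19 to 19.6 in scr, 57.5 to 68.0 in DZNep, 21.8 to 24.4 in GSK126 and 18.1 to 20 in DMSO cells, with Thy1 at 0 and Col3a1, Dcn and Lum under 1 CPM throughout. Of 9 blood and endothelial markers 2 passed, Cd68 and Fcer1g, and the other 7 stayed under 1 CPM throughout. All 9 together summed to 7.67 to 8.63 CPM in DZNep and 4.24 to 4.81 CPM in DMSO cells, with Adgre1, Cd3e and Cdh5 at 0. Of 6 keratinocyte markers 1 passed, Cdh1, and the other 5 stayed under 1 CPM throughout. All 6 together summed to 11.2 to 11.6 CPM in DZNep and 3.42 to 3.63 CPM in DMSO cells, with Krt5, Krt14 and Krt1 at 0. Their sum was 4.48 to 4.92 CPM in siEzh2, 2.31 to 2.96 in scr and 2.5 to 3.49 in GSK126 cells. Mitochondrially encoded genes took 6.17% to 8.4% of counts in DZNep and 8.36% to 9.27% in DMSO cells. The part of these marker differences in the results below was not tested. Fewer cells of a kind and less RNA per cell cannot be told apart in such bulk samples. Counting is per gene, so the long and short products of Bcl2l1 are not separated. The strand setting is not given, and Bid shares 628 exonic bases with Bcl2l13 on the other strand (110 to 123 CPM), Bad 524 with Gpr137 (24.0 to 36.6 CPM) and Bak1 614 with Ggnbp1 (1.22 to 2.52 CPM), so reads there are uncertain. Bax shares 192 bases on its own strand with Gm45808, which is not among the identifiers of the count table, and Bcl2 shares 558 with D630008O14Rik (at most 0.0507 CPM).

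The effector Bak1 and the pro-survival Mcl1 were the most abundant family transcripts in every group once levels were scaled by exon length. Bak1 stood at 116 ± 2.52 CPM per kb of exon in siEzh2, 110 ± 6.13 in scr, 150 ± 1.16 in DZNep, 109 ± 12.3 in GSK126 and 108 ± 3.9 in DMSO cells (SD, n = 3 each). Mcl1 followed at 70.8 ± 3.21 CPM per kb in siEzh2, 64.6 ± 5.54 in scr, 109 ± 10.2 in DZNep, 80.1 ± 4.89 in GSK126 and 91.2 ± 3.24 in DMSO cells. Bax came next and then Bcl2l1, and in all 5 groups the libraries of these 4 genes did not overlap along the order Bak1, Mcl1, Bax and Bcl2l1. The other 5 genes lay between 1.48 and 5.59 CPM per kb, and many neighbours among them overlapped. Bcl2l11 was the lowest tested member in siEzh2, scr, GSK126 and DMSO cells, with no overlap with the gene above it. In DZNep cells Bcl2 was the lowest (1.48 ± 0.135 CPM per kb), and Bcl2l11 (5.19 ± 0.386) overlapped with Bid above it and Bad below it. With the longest transcript as length, the first 4 ranks and the lowest rank were the same in each group.

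**Figure D1:**
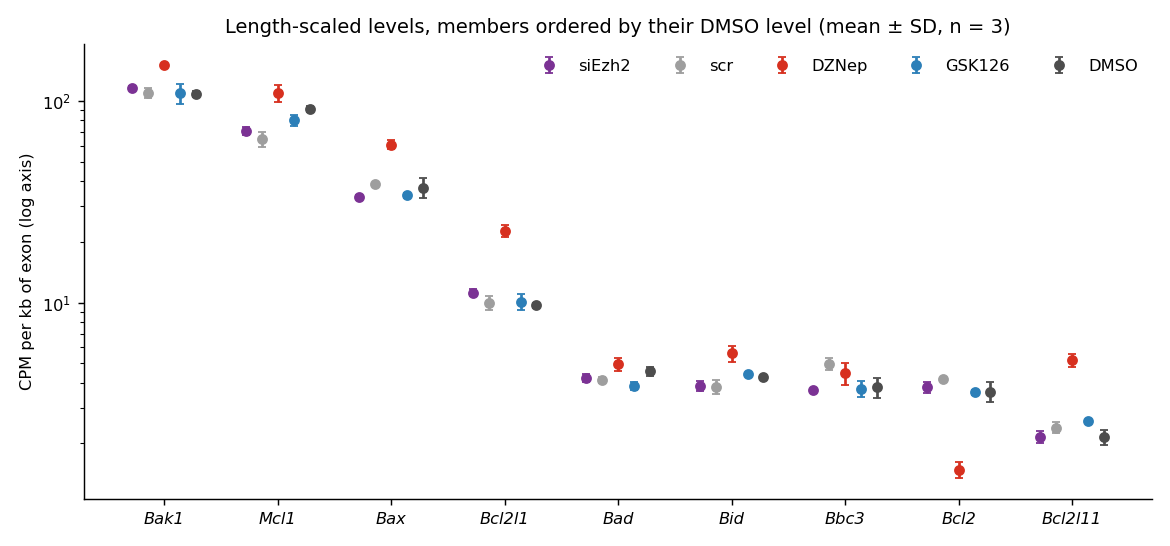
Levels of the 9 tested members in CPM per kb of exon on a log axis, mean ± SD of 3 libraries per group, with members ordered by their DMSO level. Bak1, Mcl1, Bax and Bcl2l1 keep their order in all groups, while Bcl2 drops to 1.48 and Bcl2l11 stands at 5.19 CPM per kb with DZNep.

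DZNep changed 7 of the 9 tested members against DMSO, 6 higher and 1 lower. The pro-survival genes split: Bcl2 fell 2.43-fold, Bcl2l1 rose 2.35-fold and Mcl1 rose 1.19-fold. Both effectors rose, Bax by 1.63-fold and Bak1 by 1.39-fold, and among BH3-only genes Bcl2l11 rose 2.41-fold and Bid 1.31-fold. DZNep moved much of the transcriptome, with 62.3% of 15152 genes called (31.2% higher and 31.0% lower at a Benjamini-Hochberg adjusted p under 0.05 in edgeR's quasi-likelihood test), so a count of 7 in 9 lies near that background. The median log2 change of the 9 was 0.39 against 0.002 over all genes tested, and the median size of change was 0.47 against 0.33. The libraries of both groups did not overlap for 7 of the 9 members and for 63.0% of all genes.

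Gene positions are those of GENCODE M21 on GRCm38, and counts cover all exons of a gene. Bcl2 (ENSMUSG00000057329, chr1:106538178-106714274, minus strand) stood at 15, 12.6 and 13.1 CPM in the DZNep libraries, against 36.4, 33.7 and 29.0 CPM in the DMSO libraries. Every DZNep library lay below every DMSO library, and the log2 fold change was −1.28 ± 0.08 (SE; adjusted p = 3.01e-11). A change of larger size was seen in 8.91% of the genes tested. Bcl2l1 (ENSMUSG00000007659, chr2:152780668-152831728, minus strand) went the other way, with 109, 96.4 and 107 CPM in DZNep cells, against 45.3, 45.0 and 42.9 CPM in DMSO cells. The groups did not overlap (log2 1.23 ± 0.07, adjusted p = 6.04e-12), and 9.5% of genes changed by more. Mcl1 (ENSMUSG00000038612, chr3:95658788-95663176, plus strand) had 412, 354 and 351 CPM with DZNep, against 310, 324 and 302 CPM with DMSO. The DZNep libraries again all lay above the DMSO libraries, by a smaller margin (log2 0.26 ± 0.07, adjusted p = 0.00338), and 59.3% of genes changed by more.

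Bax (ENSMUSG00000003873, chr7:45461697-45466898, minus strand), whose product moves to mitochondria on activation, had 90.0, 99.4 and 97.0 CPM in DZNep cells, against 53, 56.6 and 65.7 CPM in DMSO cells. All DZNep libraries were higher (log2 0.71 ± 0.06, adjusted p = 7.26e-09). Bak1 (ENSMUSG00000057789, chr17:27019810-27029009, minus strand), whose product already resides in the mitochondrial membrane, had 364, 360 and 359 CPM with DZNep, against 251, 269 and 260 CPM with DMSO. The DZNep libraries were tightly grouped and clear of the controls (log2 0.47 ± 0.06, adjusted p = 2.77e-06).

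Bcl2l11 (ENSMUSG00000027381, chr2:128126038-128162547, plus strand), which encodes BIM, a BH3-only protein able to bind all the main pro-survival members, had 39.0, 40.9 and 45.1 CPM in DZNep cells, against 19, 16.9 and 16.1 CPM in DMSO cells. Every DZNep library lay above every DMSO library, and the log2 fold change was 1.27 ± 0.07 (adjusted p = 9.9e-12), exceeded in size by 9.08% of genes. Bid (ENSMUSG00000004446, chr6:120891930-120916853, minus strand), which encodes the BH3-only protein that caspase 8 cleaves, had 21.7, 18.2 and 19.6 CPM with DZNep, against 14.8, 15.2 and 15.2 CPM with DMSO. These groups were separate as well (log2 0.39 ± 0.07, adjusted p = 8.73e-05). Bbc3 (ENSMUSG00000002083, chr7:16308393-16318205, plus strand), which encodes the p53-inducible PUMA, had 8.65, 9.01 and 10.9 CPM with DZNep, against 8.01, 7.22 and 9.07 CPM with DMSO, and the groups overlapped. Its log2 difference was 0.23 ± 0.10 (95% interval 0.03 to 0.42, adjusted p = 0.0538), and it passed the threshold without DMSO replicate 3 (adjusted p = 0.00958) or without DZNep replicate 1 (adjusted p = 0.0284). Bad (ENSMUSG00000024959, chr19:6941861-6951899, plus strand), whose product is kept inactive by survival kinases, differed by 0.11 ± 0.07 (95% interval −0.03 to 0.26, adjusted p = 0.183). The 7 calls held under each of the alternative settings and with each library left out in turn.

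**Figure D2:**
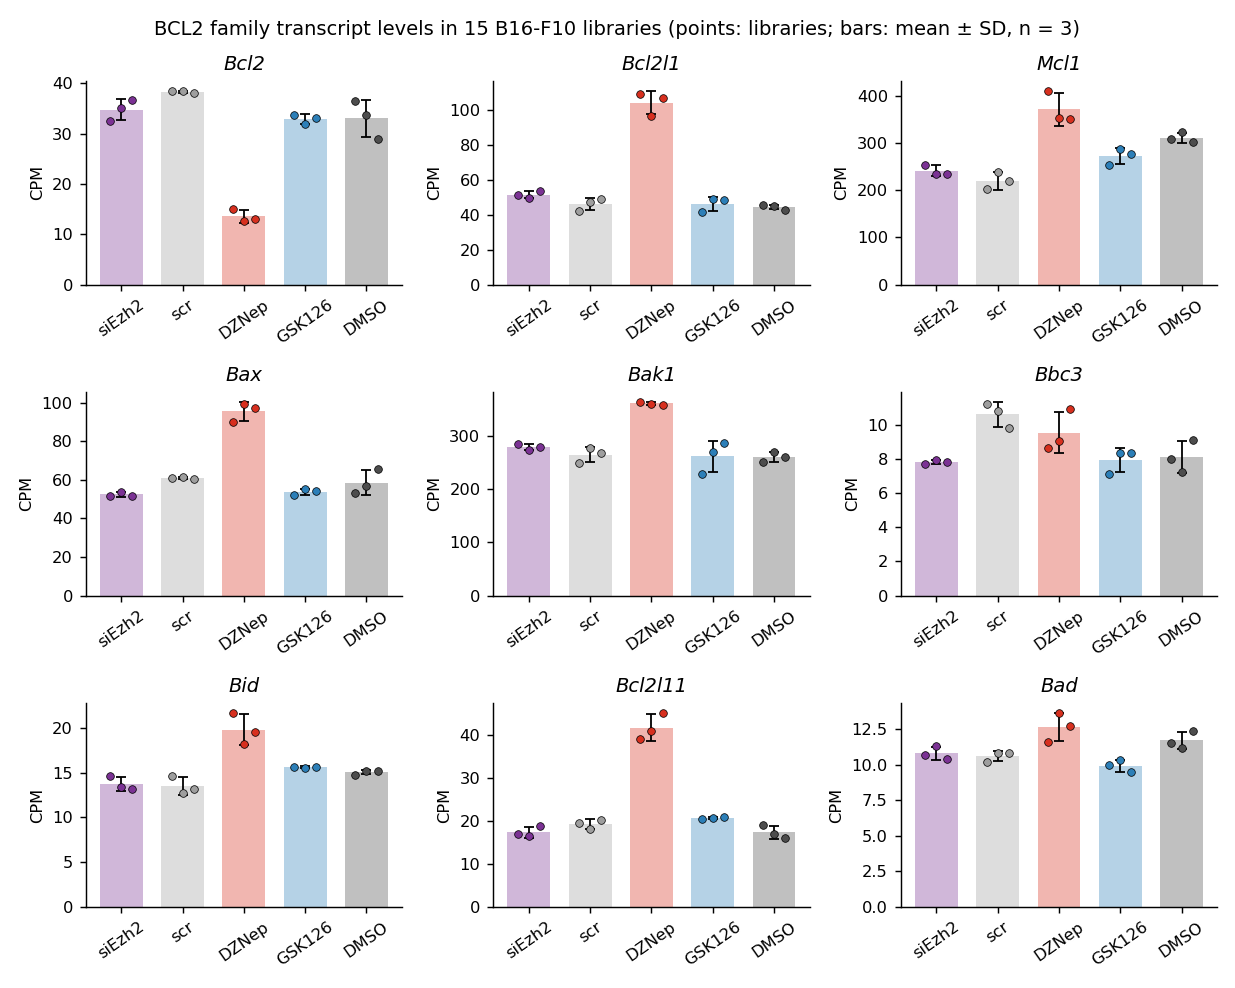
CPM of the 9 tested members in each of the 15 libraries (points), with bars for the mean and lines for the SD of 3 libraries, on axes that start at 0. The 3 DZNep libraries stand apart from all others for Bcl2 (12.6 to 15 CPM), Bcl2l1 (96.4 to 109 CPM) and Bcl2l11 (39.0 to 45.1 CPM). The same holds for Mcl1, Bax, Bak1 and Bid.

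Within each library, the transcript ratio of Bcl2l1 to Bcl2 (both per kb of exon) was 14.5, 15.3 and 16.3 with DZNep, against 2.48, 2.67 and 2.96 with DMSO. In the other groups it averaged 2.95 ± 0.163 in siEzh2, 2.4 ± 0.197 in scr and 2.8 ± 0.316 in GSK126 cells (SD, n = 3 each). The ratio of Bcl2l11 to Bcl2 averaged 3.53 ± 0.492 in DZNep and 0.6 ± 0.0311 in DMSO cells, so BIM transcript outnumbered Bcl2 transcript per kb in the DZNep libraries alone among the 15. Bcl2 made up 1.11% ± 0.017 of the summed length-scaled level of Bcl2, Bcl2l1 and Mcl1 in DZNep cells and 3.45% ± 0.332 in DMSO cells. Bcl2l1 made up 17.1% ± 1.11 in DZNep and 9.26% ± 0.186 in DMSO cells, and Mcl1 remained the major pro-survival transcript at 81.8% ± 1.12 with DZNep and 87.3% ± 0.457 with DMSO. The Mcl1 share averaged 82.5% ± 1.02 in siEzh2, 81.9% ± 0.873 in scr and 85.4% ± 0.256 in GSK126 cells. The sum of Bax and Bak1 over the sum of these 3 pro-survival genes was 1.43, 1.69 and 1.65 in DZNep libraries, against 1.32, 1.37 and 1.49 in DMSO libraries, which overlap. That ratio averaged 1.74 ± 0.0383 in siEzh2, 1.89 ± 0.0672 in scr and 1.52 ± 0.0749 in GSK126 cells. These ratios compare transcripts, not proteins, and are given as descriptions. Their sizes also depend on the length used. With the longest transcript as length, Bcl2l1 stood at 40.5 CPM per kb in DZNep and 17.3 in DMSO cells. On that scale Bcl2 stood at 1.89 and 4.59, Bax at 86.8 and 53.1, and Mcl1 at 109 and 91.2 CPM per kb.

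**Figure D3:**
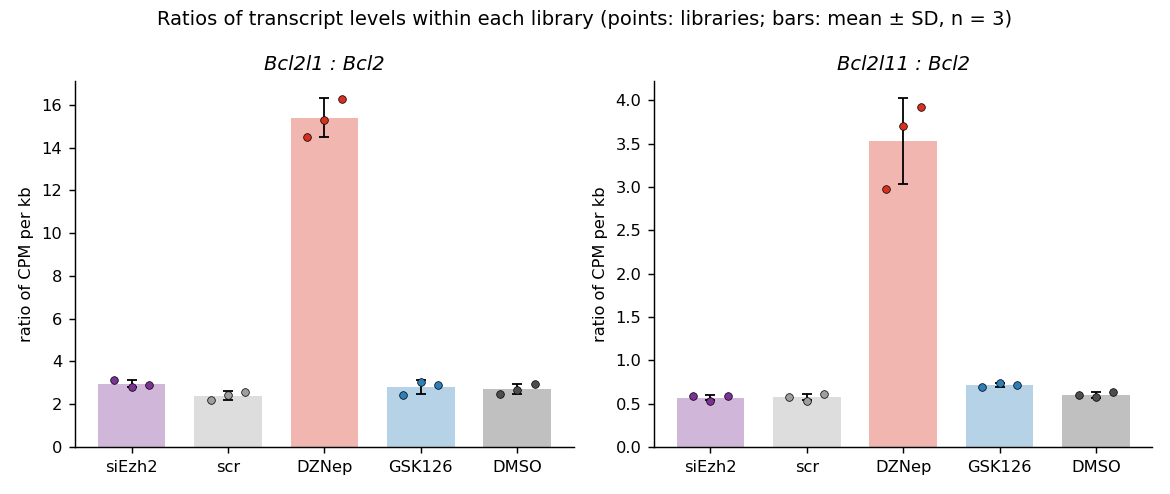
Ratios of CPM per kb of exon within each library (points), with bars for the mean and lines for the SD of 3 libraries. The Bcl2l1 to Bcl2 ratio lies between 14.5 and 16.3 with DZNep and between 2.18 and 3.13 in all other libraries.

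The profiles of the 3 members with the smallest p over the 5 groups (Bcl2l1, Bcl2l11 and Bcl2) were matched to other genes by the root-mean-square difference of centred log2 CPM over the 15 libraries. The search took in genes that averaged 2 CPM or more and had an annotated symbol other than a predicted or clone name. Among them the closest to Bcl2l1 were Ppp1r10, a regulatory subunit of protein phosphatase 1, at 0.0917, the membrane transporter Slc4a11 at 0.098 and Dennd2c at 0.0985, where the median gene stood at 0.475. For Bcl2l11 they were the endoplasmic reticulum gene Cln8 at 0.0999, the zinc finger gene Zfp365 at 0.11 and Arhgap11a at 0.119, with a median gene at 0.485. Those closest to Bcl2 were Mapk1ip1 at 0.0818, the phosphoinositide phosphatase Inpp4b at 0.0849 and the formamidase Afmid at 0.0905, with a median gene at 0.588. Inpp4b averaged 24.8 CPM in DZNep and 57.7 CPM in DMSO cells, and Cln8 averaged 88.7 CPM in DZNep and 39.4 CPM in DMSO cells. This likeness is a description of 15 libraries that share 1 fit.

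GSK126 at the same dose changed 2 of the 9 members against DMSO, by 1.2-fold and 1.18-fold. Over all genes 12.7% were called, 7.15% higher and 5.54% lower. Bcl2l11 rose, with 20.5, 20.7 and 20.9 CPM in GSK126 cells, against 19, 16.9 and 16.1 CPM in DMSO cells (log2 0.26 ± 0.07, adjusted p = 0.0271). Bad fell, with 9.95, 10.3 and 9.46 CPM in GSK126 cells, against 11.5, 11.2 and 12.4 CPM in DMSO cells (log2 −0.24 ± 0.07, adjusted p = 0.0371). The groups did not overlap for either gene, nor for Mcl1 and Bid, 4 of 9 members where 30.7% of all genes were so separated. Both calls were lost under several settings. For Bcl2l11 significance went with the removal of DMSO replicate 2 (adjusted p = 0.0719) or 3 (0.121), or of GSK126 replicate 1 (0.0628), 2 (0.0746) or 3 (0.0844), and in a fit of those groups alone (0.0686). The Bad call was lost without DMSO replicate 3 (0.157) or GSK126 replicate 1 (0.093), 2 (0.0638) or 3 (0.143), with library totals in place of TMM (0.0582), with no low-count filter (0.0569) and in a fit of those groups alone (0.0836).

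The other 7 members did not pass with GSK126, and their 95% intervals lay between −0.32 and 0.19 on the log2 scale. Bcl2 had 33.7, 31.9 and 33.2 CPM in GSK126 cells, against 36.4, 33.7 and 29.0 CPM in DMSO cells, with a log2 difference of 0.0 (interval −0.14 to 0.14). Bcl2l1 differed by 0.06 (interval −0.08 to 0.19) and Bak1 by 0.01 (interval −0.12 to 0.14). Mcl1 had 255, 288 and 278 CPM with GSK126, against 310, 324 and 302 CPM with DMSO, and its groups did not overlap. Its log2 difference of −0.19 ± 0.07 missed the threshold (adjusted p = 0.0833), and passed it with no low-count filter (0.0204). Bax differed by −0.12 ± 0.06 (adjusted p = 0.226) and passed without DMSO replicate 1 (0.0452). A missed threshold does not show that the levels were alike.

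With siEzh2, Bbc3 and Bax were lower than with scr, and the other 7 members did not pass. The call rate was 26.1% over all genes, 13.2% higher and 12.9% lower. Bbc3 had 7.7, 7.91 and 7.81 CPM in siEzh2 cells, against 11.2, 10.8 and 9.78 CPM in scr cells (log2 −0.44 ± 0.10, adjusted p = 0.00259). The siEzh2 libraries all lay below the scr libraries. They did not lie below DMSO cells, which had 8.01, 7.22 and 9.07 CPM, and with DMSO as the control the log2 difference was −0.06 (adjusted p = 0.752). Bax had 51.7, 53.9 and 51.8 CPM in siEzh2 cells, against 61.0, 61.6 and 60.4 CPM in scr cells, without overlap (log2 −0.22 ± 0.06, adjusted p = 0.0153). That call was lost without scr replicate 1 (0.0585) or 2 (0.0513), without siEzh2 replicate 1 (0.0543) or 3 (0.0702), and with DMSO as the control (−0.16, adjusted p = 0.109).

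Bcl2l1 had 51.2, 49.7 and 53.4 CPM in siEzh2 cells, against 42.1, 47.2 and 48.9 CPM in scr cells. The groups did not overlap, but the log2 difference of 0.16 ± 0.07 missed the threshold (adjusted p = 0.0953). It passed without scr replicate 3 (0.0482), in a fit of those groups alone (0.0408) and with DMSO as the control (0.0438). Bcl2 had 32.6, 35.2 and 36.6 CPM with siEzh2, against 38.5, 38.4 and 38.1 CPM with scr, also without overlap (log2 −0.14 ± 0.07, adjusted p = 0.186). In all, 4 of 9 members were separated between these groups, beside 41.8% of all genes. Mcl1 overlapped between siEzh2 (255, 236 and 235 CPM) and scr (202, 240 and 220 CPM), with a log2 difference of 0.13 ± 0.07 (adjusted p = 0.185). With DMSO as the control the Mcl1 difference turned to −0.37 (adjusted p = 0.00144). Bcl2l11 (−0.15 ± 0.08), Bak1 (0.07 ± 0.06), Bad (0.03 ± 0.08) and Bid (0.01 ± 0.07) did not pass. All 7 melanocyte markers and 3 of 4 fibroblast markers were higher in siEzh2 than in scr cells, beside 26.1% of all genes called. The controls differed here too. In scr against DMSO cells 5 of the 7 melanocyte markers were lower and 1 higher. Of the 4 fibroblast markers 1 was lower and 1 higher, where 25.9% of all genes were called.

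**Figure D4:**
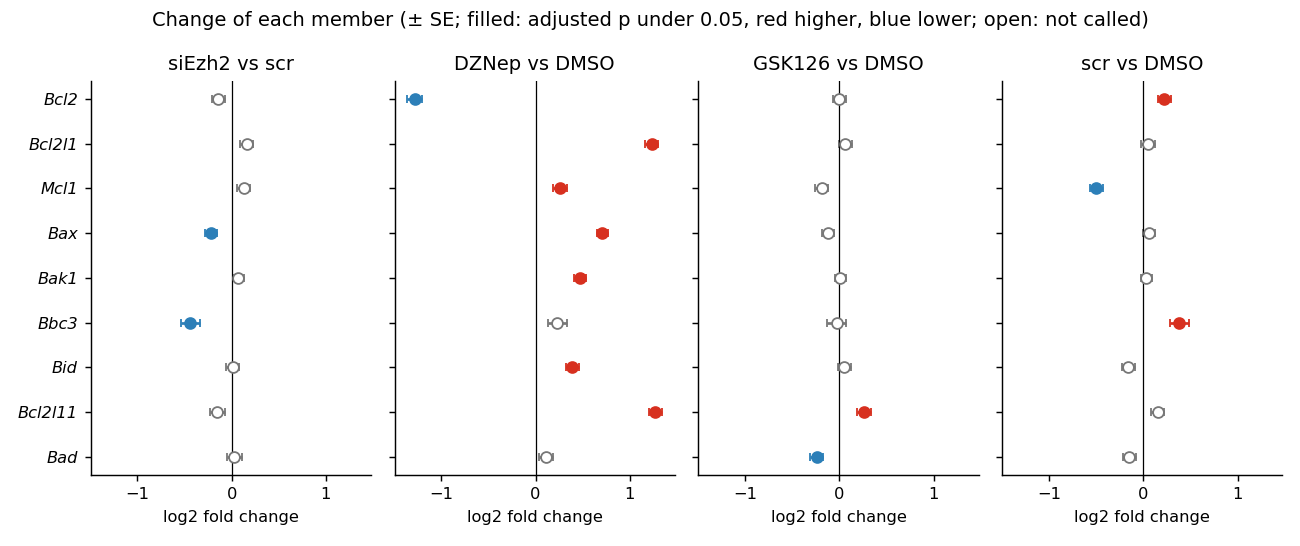
Log2 fold change of each tested member ± SE in 4 comparisons, filled where the adjusted p is under 0.05 (red higher, blue lower) and open otherwise. DZNep spreads the members from −1.28 (Bcl2) to 1.27 (Bcl2l11), whereas the values for siEzh2, GSK126 and scr stay between −0.50 and 0.38.

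The controls themselves differed for 3 of the 9 members, in a comparison in which 25.9% of all genes were called (12.2% higher and 13.6% lower, a split that was 58.5% higher among calls with library totals and 47.3% with TMM). Mcl1 was lower in scr cells, with 202, 240 and 220 CPM, against 310, 324 and 302 CPM in DMSO cells (log2 −0.50 ± 0.07, adjusted p = 2.36e-05). Bbc3 was higher in scr cells (log2 0.38 ± 0.10, adjusted p = 0.00687). Bcl2 was higher as well, at 38.5, 38.4 and 38.1 CPM in scr cells, against 36.4, 33.7 and 29.0 CPM in DMSO cells (log2 0.22 ± 0.07, adjusted p = 0.0328). The Bcl2 call was lost without DMSO replicate 2 (0.056) or 3 (0.166), without scr replicate 1 (0.0902), 2 (0.0793) or 3 (0.0755), and in a fit of those groups alone (0.0809). For 5 of 9 members the groups did not overlap, beside 37.5% of all genes. Bax passed without DMSO replicate 3 (adjusted p = 0.0379), Bid without scr replicate 1 (0.0443) and Bcl2l11 without DMSO replicate 1 (0.0409). Control type and arm, with its run of library numbers, cannot be told apart here.

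Set directly against GSK126, DZNep differed for all 9 tested members, with 8 higher and Bcl2 lower, and without overlap for any of them. Of all genes 64.6% were called (32.9% higher and 31.7% lower) and 70.5% did not overlap. The log2 differences were −1.28 ± 0.08 for Bcl2, 1.17 ± 0.07 for Bcl2l1, 1.01 ± 0.07 for Bcl2l11, 0.83 ± 0.06 for Bax, 0.47 ± 0.07 for Bak1, 0.44 ± 0.07 for Mcl1, 0.36 ± 0.08 for Bad, 0.34 ± 0.07 for Bid and 0.26 ± 0.10 for Bbc3. The adjusted p for Bbc3 was 0.0294, and its call was lost without DZNep replicate 3 (0.243), without GSK126 replicate 1 (0.148) and with library totals (0.052). For the other 8 members the adjusted p was 0.000357 or less.

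The effect of each agent was also compared, each against its own control. The DZNep effect differed from the siEzh2 effect for 7 of 9 members, where 51.1% of all genes were called (25.3% higher and 25.8% lower). It was lower for Bcl2 (−1.15 ± 0.11) and higher for Bcl2l11 (1.42 ± 0.10), Bcl2l1 (1.07 ± 0.10), Bax (0.92 ± 0.09), Bbc3 (0.67 ± 0.14), Bak1 (0.40 ± 0.09) and Bid (0.38 ± 0.10), with adjusted p of 0.00475 or less in edgeR. Mcl1 (0.12, adjusted p = 0.306) and Bad (0.08, adjusted p = 0.541) passed with DMSO as the control of siEzh2 (0.62, adjusted p = 1.86e-07, and 0.23, adjusted p = 0.0117). With that control the Bbc3 difference was 0.29 (adjusted p = 0.019), less than the 0.67 with scr. The siEzh2 effect differed from the GSK126 effect for 3 of 9 members, where 20.7% of all genes were called (10.1% higher and 10.5% lower). It was lower for Bcl2l11 (−0.40 ± 0.11, adjusted p = 0.00944) and Bbc3 (−0.41 ± 0.14, adjusted p = 0.0497) and higher for Mcl1 (0.32 ± 0.10, adjusted p = 0.026). The Mcl1 difference was lost without DMSO replicate 2 (0.0622), GSK126 replicate 1 (0.0606), scr replicate 1 (0.0599) or siEzh2 replicate 1 (0.0718). The Bbc3 difference was lost without DMSO replicate 1 (0.0736) or 2 (0.125), GSK126 replicate 2 (0.119) or 3 (0.119), scr replicate 1 (0.129) or 2 (0.096), or siEzh2 replicate 1 (0.0877), 2 (0.077) or 3 (0.0945), and with library totals (0.0512). With DMSO as the control of siEzh2 the Bbc3 difference was −0.03 (adjusted p = 0.889) and the Mcl1 difference −0.18 (adjusted p = 0.0771), while Bcl2l11 differed by −0.25 (adjusted p = 0.0236).

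Pmaip1, which encodes NOXA, a BH3-only partner of MCL1, was listed with 0 counts in all 15 libraries, out of 644782752 counts in all. In a single library a count of 0 allows a level of up to 3 counts, which is 0.0462 to 0.0918 CPM depending on the library. This limit covers counting error only. The gene lies on chromosome 18, at 66458533 to 66465565 in GRCm38. On the same chromosome 424 of 499 protein-coding genes had a count, and the neighbours Lman1 (68047 counts over all libraries) and Gnal (364) were counted, while Ccbe1 had 2 and Mc4r had 0. Over the genome 5356 of 21596 protein-coding genes (24.8%) had no count. No difference between groups could be measured for it. The annotation behind the counts is not given, and why the gene had no count was not tested, so the 0 is not read as absence of the transcript.

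With DZNep, the other members of the apoptosis pathway were called in both directions, in 7 lists set beside the family. Over all genes 62.3% were called, 31.2% higher and 31.0% lower. Of 9 tested BCL2 relatives (16 listed), 2 rose and 4 fell, with a median log2 change of −0.09. The BH3-only gene Bmf fell 2.22-fold, with 7.84 ± 0.261 CPM in DZNep and 17.4 ± 0.554 CPM in DMSO cells (log2 −1.15 ± 0.07), and the pro-survival Bcl2l2, which encodes BCL-W, fell 1.44-fold, at 20.7 ± 1.14 and 29.8 ± 0.857 CPM. Bnip3l, a mitophagy receptor with a BH3-like motif, rose 1.26-fold. The remaining calls, named after their values were seen, were Bcl2l12 (0.24), Hrk (−1.64, on 32 counts in DZNep and 123 in DMSO cells) and Bok (−2.44, on 4 counts in DZNep and 29 in DMSO cells). Of 14 apoptosome and caspase genes 7 rose and 2 fell, with a median of 0.28. Htra2, a mitochondrial protease, rose by 0.49 ± 0.06, and the initiator caspase Casp2 fell to 73.0 ± 2.84 CPM in DZNep cells, against 106 ± 7.28 CPM in DMSO cells. Casp9, the initiator recruited by APAF1, was the other that fell (−0.30 ± 0.06), named after its values were seen.

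Upstream of the family, Mdm2, the ubiquitin ligase of p53 and itself a p53 target, rose 2.15-fold with DZNep (139 ± 3.6 CPM, against 64.6 ± 2.2 CPM with DMSO). Ddit3, which encodes the stress factor CHOP, fell 4.5-fold (10.4 ± 0.616 CPM with DZNep, against 47.1 ± 4.77 CPM with DMSO). Of the 10 tested transcription regulators of BH3-only genes (12 listed) 4 rose and 3 fell, with a median of 0.11. The others, named after their values were seen, were Myc (0.63), Foxo1 (0.37) and Foxo3 (0.21), which rose, and Atf4 (−0.95) and Trp53 (−0.54), which fell. In the death receptor list 5 of 8 rose and 1 fell, with a median of 0.34. As for the regulators, these counts stand beside 62.3% of all genes called with DZNep. Tnfrsf10b, the mouse TRAIL receptor, rose 3.2-fold to 38.4 ± 1.27 CPM with DZNep, against 12.0 ± 0.481 CPM with DMSO, and Cflar, which encodes the caspase 8 inhibitor FLIP, fell 1.31-fold. Fas was nearly silent, with 61 counts in DZNep and 3 in DMSO cells, a ratio of 25.4 whose counting interval starts at 8.28. Fadd (0.45), Tradd (0.41) and Ripk1 (0.27) were the other members that rose, named after their values were seen.

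Of 5 inhibitors of apoptosis proteins, Birc5, the mitotic gene for survivin, rose 1.76-fold with DZNep, Birc3 fell 1.56-fold, and Xiap (−0.21, named after its values were seen) fell, with a median of −0.21. Counts in this and the next lists stand beside 62.3% of all genes called with DZNep. Among 10 partners of BAX and BAK at the mitochondrial membrane 4 rose and 3 fell, with a median of 0.10. The fusion gene of the outer membrane Mfn2 rose 1.68-fold and that of the inner membrane Opa1 fell 1.3-fold. Ppif (0.55), Bcap31 (0.32) and Vdac1 (0.21) rose as well, and Dnm1l (−0.29) and Vdac3 (−0.29) fell, all named after their values were seen. Of 9 genes of MCL1 and BH3 protein turnover 1 rose and 2 fell, with a median of −0.13. These were Cdk1 (0.33 ± 0.07), the ubiquitin ligase Trim17 (6 counts in DZNep and 49 in DMSO cells, a ratio of 0.153 with a counting interval of 0.0535 to 0.357) and Mapk8 (−0.17, named after its values were seen).

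**Figure D5:**
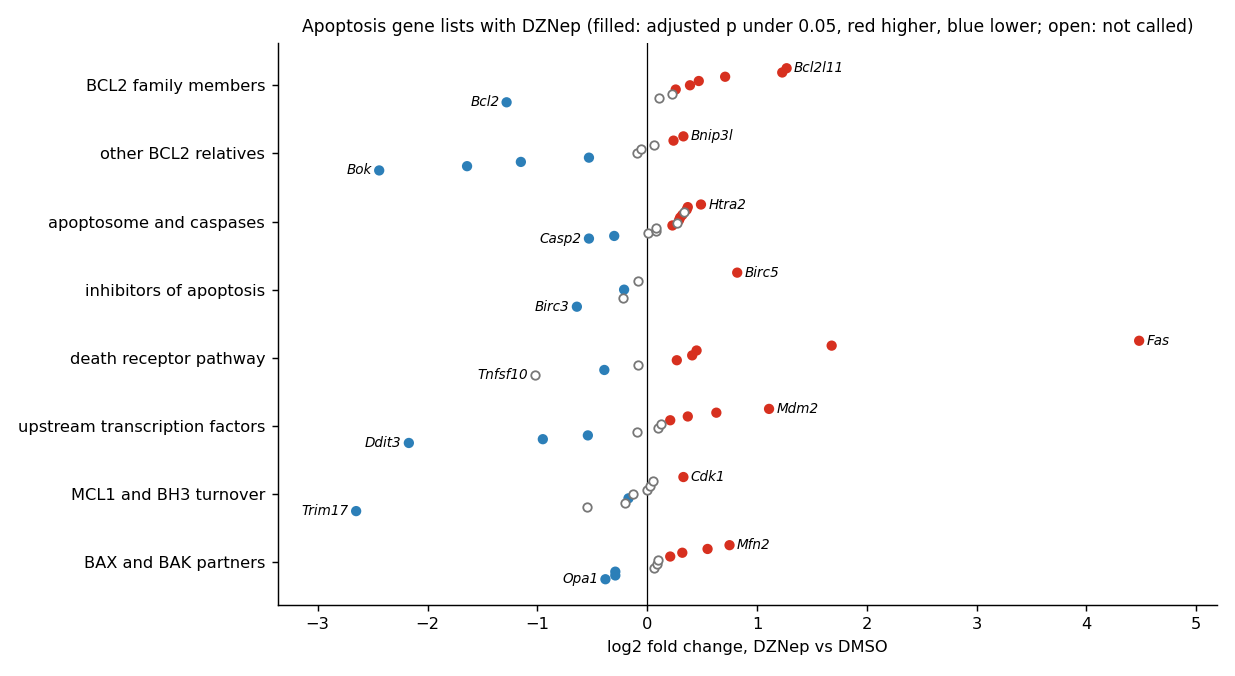
Log2 fold change, DZNep against DMSO, of each tested gene in the BCL2 family and 7 other apoptosis lists, filled where the adjusted p is under 0.05 (red higher, blue lower) and open otherwise. Each list has called genes on both sides of 0, and the outermost points Fas, Trim17 and Bok rest on few counts (3, 6 and 4 in their lower group).

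With GSK126, calls in these lists are set beside the 12.7% of all genes called. Bnip3, a mitophagy receptor, rose 1.33-fold (85.7 ± 4.65 CPM, against 64.2 ± 2.32 CPM with DMSO), 1 of 9 BCL2 relatives. Apaf1, the scaffold of the apoptosome, fell 1.18-fold, 1 of 14. In the death receptor list Tnfrsf10b rose (0.29 ± 0.06), and Cflar (−0.22 ± 0.05) and Tradd (−0.30, named after its values were seen) fell, 3 of 8. Mapk8 (0.17 ± 0.05, adjusted p = 0.041) was the 1 call among 9 turnover genes. It was lost without DMSO replicate 1 (0.0849) or 3 (0.102), without GSK126 replicate 1 (0.0698), 2 (0.107) or 3 (0.134), with library totals (0.0531), with no low-count filter (0.175) and in a fit of those groups alone (0.112). By edgeR 0 of 5 inhibitors of apoptosis, 0 of 10 transcription regulators and 0 of 10 partners of BAX and BAK were called. At an unadjusted p under 0.05 these counts were 1, 2 and 2, and by DESeq2 they were 0, 2 and 0. The median log2 changes were 0.08 for the relatives, −0.01 for apoptosome genes, 0.02 for inhibitors, 0.07 for death receptor genes, 0.0 for transcription regulators, −0.04 for turnover genes and −0.05 for partners, beside −0.009 over all genes.

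With siEzh2, calls in these lists are likewise set beside the 26.1% of all genes called. Of 14 apoptosome and caspase genes 1 rose and 3 fell, with a median of 0.06. Casp2 fell 1.22-fold (92.9 ± 2.03 CPM, against 113 ± 1.45 CPM with scr), Diablo fell (−0.19, named after its values were seen), and Apaf1 rose 1.13-fold. Of 10 transcription regulators 5 fell and Foxo3 rose (0.25 ± 0.04), with a median of −0.18. Ddit3 fell 1.65-fold (57.9 ± 8.12 CPM, against 95.8 ± 6.69 CPM with scr), and Mdm2 (−0.20), E2f1 (−0.26), Trp53 (−0.26) and Atf4 (−0.19), named after their values were seen, fell too. With DMSO as the control, Casp2 (−0.19, adjusted p = 0.019) was still lower, whereas Ddit3 was higher (0.30, adjusted p = 0.0269), and Apaf1 (adjusted p = 0.33) and Foxo3 (0.337) were not called. Among 9 relatives Bnip3l (0.28 ± 0.06), Bcl2l2 (0.21 ± 0.07) and Bnip3 (0.26, named after its values were seen) rose, with a median of 0.02. The Bcl2l2 call was lost without scr replicate 3 (0.102) or siEzh2 replicate 2 (0.115) and with library totals (0.0686), and with DMSO as the control neither Bcl2l2 (0.674) nor Bnip3l (0.167) was called.

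In the remaining lists each siEzh2 call was lost with DMSO as the control. These calls too stand beside the 26.1% of all genes called against scr. Birc3 rose (0.38 ± 0.11), 1 of 5 inhibitors (median 0.02), and was lost without scr replicate 3 (adjusted p = 0.0664) or siEzh2 replicate 1 (0.0888). Tnfrsf10b (0.24 ± 0.07) and Cflar (0.15 ± 0.05) rose and the TNF receptor gene Tnfrsf1a (−0.21 ± 0.07) fell, 3 of 8 death receptor genes (median 0.08). The Tnfrsf10b call was lost without scr replicate 2 (0.051) and with no low-count filter (0.0522). Cflar was lost without scr replicate 1 (0.0593) or 2 (0.0801), without siEzh2 replicate 1 (0.0689) or 3 (0.0787), with library totals (0.076) and with no filter (0.0996). Tnfrsf1a was lost without scr replicate 1 (0.0636) or 3 (0.213) and without siEzh2 replicate 1 (0.0646) or 2 (0.184). Mapk8 (−0.26 ± 0.05) fell and the MCL1 ubiquitin ligase subunit Fbxw7 (0.19 ± 0.05) rose, 2 of 9 turnover genes (median −0.02), the second lost with no filter (0.0661). Of 10 partners of BAX and BAK the channel genes Vdac3 (−0.23 ± 0.06) and Vdac1 (0.15 ± 0.05) were called (median 0.0). The Vdac1 call was lost without scr replicate 1 (0.0716) or 2 (0.11), without siEzh2 replicate 1 (0.0621), 2 (0.1) or 3 (0.0568), with library totals (0.0772) and with no filter (0.099).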

How the data were processed

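RNA of 15 B16-F10 libraries was measured as whole-number read counts per gene, which the authors deposited without normalization. The submitters' processing notes name STAR, featureCounts and the build GRCm38. Their versions and settings, the annotation, strandedness and the treatment of multi-mapped reads are not given in the sources used, so overlapping or near-identical genes could share or lose reads. Of 46078 identifiers 45229 matched GENCODE M21, and the other 849 held 0.0588% of counts. Columns were tied to samples by name.

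The members, gene lists, comparisons and tests were chosen with earlier results of these data known. Counts were tested in R 4.3.3 with edgeR 4.0.16 (quasi-likelihood test, robust, TMM scaling, filterByExpr) on a single model over the 15 libraries that had 1 coefficient for each group, and limma 3.58.1 was loaded with it. Benjamini-Hochberg adjustment ran over all 15152 genes tested, and every adjusted p, also where only its value stands in brackets after a setting, comes from such a fit. SE values are the log2 fold change over the square root of F, and 95% intervals are 1.96 SE either side. The fitted common dispersion of 0.00409 corresponds to 6.4% variation between replicates. Pairs of replicates differed by a chi-square per degree of freedom of 5.77 to 37.8, so each library was counted. One count was worth 0.0154 to 0.0306 CPM. Levels per kb use the summed exon length of each gene.

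Named genes were the 10 members, Ezh2, and from each other list and main comparison the 2 called genes with the smallest p and the first in the other direction. Genes outside this rule are marked as named after their values were seen. A gene the rule names is not reported here. Promoters came from RefSeq (GRCm38.p6). Alternatives were RLE scaling, library totals, no filter, a replicate block, only the compared groups in the fit, DMSO as the control of siEzh2, DESeq2 1.42.0 and each library left out. The test was tested on simulated data of 15152 genes. In each comparison 68 genes were changed by 1 on the log2 scale, 66 by 0.5 and 66 by 0.25. With DZNep against DMSO the test recovered 100% of genes changed by 1 on the log2 scale, 98.5% at 0.5 and 30.3% at 0.25. Recovery was the same for GSK126 against DMSO, and 100%, 100% and 48.5% for siEzh2 against scr. False calls made up 3.77% of calls for DZNep, 4.97% for GSK126 and 7.26% for siEzh2. In the real data far larger shares of genes were called (62.3%, 12.7% and 26.1%), so these rates need not hold there. The changed genes were drawn only from those above a minimum mean level, and each gene took the dispersion of the trend over genes. The recovery rates therefore do not cover genes with few counts, such as Fas, Trim17, Bok and Hrk.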

Additional observations from a re-analysis of the deposited data

Results flagged for a closer look

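For 10 results the effects of a pair of agents, each against its own control, differed by the test of the difference itself (edgeR, adjusted over all genes). Between DZNep and siEzh2 the log2 difference of effects was −1.15 for Bcl2, 1.07 for Bcl2l1, 0.92 for Bax, 0.40 for Bak1, 0.67 for Bbc3, 0.38 for Bid and 1.42 for Bcl2l11, 7 of 9 members where 51.1% of all genes were called. Between siEzh2 and GSK126 it was 0.32 for Mcl1, −0.41 for Bbc3 and −0.40 for Bcl2l11, 3 of 9 members where 20.7% of all genes were called. The Mcl1 and Bbc3 calls of this second pair were lost on leaving out any of several single libraries, 4 for Mcl1 and 9 for Bbc3. With DMSO as the control of siEzh2, Bbc3 was 0.29 in the first pair, and in the second pair Bbc3 was −0.03, Mcl1 −0.18 and Bcl2l11 −0.25. In scr cells Bbc3 averaged 10.6 ± 0.717 CPM, against 8.1 ± 0.928 CPM in DMSO cells, and Mcl1 averaged 221 ± 18.9 CPM in scr and 312 ± 11.1 CPM in DMSO cells (SD, n = 3 each). The part of the difference between controls was not tested beyond the fit with DMSO as the control.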

How the results depend on the processing

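Of the members' log2 changes under the alternatives, 809 kept their direction and side of the threshold, 43 lost a call, 12 gained one and 27 changed sign. For other named genes these were 399, 41 and 6, with no gain possible since all were called, and genes outside the naming rule were not run under them. The count of members called with GSK126 was 1 with library totals and 0 in a fit of those groups alone, and 0 to 3 with libraries left out. The count of genes called with GSK126 was 1131 in a fit of those groups alone and 1183 to 2490 with libraries left out, against 1923. Members called with siEzh2 numbered 1 to 3 with libraries left out, and genes called 2148 with DMSO as the control, against 3953. For the siEzh2 effect minus the GSK126 effect, 1 member was called with DMSO as the control and 1 to 3 with libraries left out.

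Deviations from group means were correlated between libraries with the same replicate number. For numbers 1, 2 and 3 the correlations were 0.129, −0.153 and 0.0765 (GSK126 and DMSO), 0.119, −0.083 and 0.0717 (DZNep and DMSO) and −0.401, 0.223 and −0.393 (siEzh2 and scr). They cannot settle whether equal numbers mark pairs, since deviations from a mean of 3 libraries depend on each other. With a replicate block the members called were 7 for DZNep, 2 for GSK126 and 2 for siEzh2, as without it, and of the named genes Mapk8 with GSK126 lost its call (adjusted p = 0.0535).

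Some signs changed. With GSK126, Bcl2 was −0.0064 with no filter, −0.0063 in a fit of those groups alone and −0.0899 to 0.0751 with libraries left out, Bak1 −0.0619 to 0.0958 and Bbc3 −0.1097 to 0.0626. With siEzh2, Bid was −0.0171 with library totals and −0.0289 to 0.0941 with libraries left out, and Bad −0.0023 to 0.0738. In scr against DMSO, Bax spanned −0.0068 to 0.1553 and Bak1 −0.0093 to 0.0622. For the siEzh2 minus GSK126 effect, Bak1 spanned −0.009 to 0.1377 and Bid −0.0784 to 0.044. None of the values that changed sign here was called. With DMSO as the control of siEzh2, signs also turned for genes called against scr (Bcl2l2, Apaf1, Tnfrsf10b, Cflar, Ddit3 and Fbxw7), and Mcl1 and Ddit3 were called in the new direction. There Bcl2 was 0.0812, Mcl1 −0.3665, Bid −0.1416, Bcl2l11 0.0085, Bad −0.1147, Bcl2l2 −0.0491, Apaf1 −0.0738, Tnfrsf10b −0.0303, Cflar −0.0741, Ddit3 0.2993 and Fbxw7 −0.0074, and the difference from the GSK126 effect was 0.0812 for Bcl2 and −0.1792 for Mcl1. These follow from the level in scr cells taking no part in that fit's contrast, and other causes were not tested. Changes of 0.25 on the log2 scale were often missed in the simulated data, where far fewer genes changed than were called here.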

Other observations

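Among the 16 BCL2 relatives listed, 7 did not pass the low-count filter and so were not tested. Bcl2a1a, Bcl2a1b and Bcl2a1d, near-identical copies of the pro-survival gene A1 among which reads cannot be placed with certainty, had 0 counts in all 15 libraries. Bcl2l10, Bik, Bcl2l14 and Bcl2l15 averaged at most 0.12 CPM in any group. Hrk, a BH3-only gene known from neurons, averaged 0.262 ± 0.0737 CPM in siEzh2, 0.323 ± 0.0347 in scr, 0.267 ± 0.0896 in DZNep, 0.83 ± 0.15 in GSK126 and 0.865 ± 0.281 in DMSO cells (SD, n = 3 each). Hrk was lower in scr than in DMSO cells as well (log2 −1.36 ± 0.29, adjusted p = 0.00148 by edgeR).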
